A study of Rattus norvegicus with 18 samples.

Results

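Pericentral hepatocytes line the central vein and differ from hepatocytes near the portal tract in the enzymes that they make. The genes described here were 10 markers of that zone, among them the enzyme that activates CCl4, and they were found by symbol among the 32623 genes of each library. All 10 were listed and all 10 passed the filter on low counts, so that they were among the 12904 genes tested. They fall into 6 genes of metabolism and transport (Cyp2e1, Cyp1a2, Glul, Oat, Slc1a2 and Rgn) and 4 targets or regulators of Wnt signalling (Axin2, Lgr5, Tbx3 and Rnf43). Liver RNA came from 18 male Wistar rats, with 6 rats per group and 1 library per rat.

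Control rats received chow and plain water for 12 weeks. NASH rats inhaled CCl4 for 6 weeks while drinking phenobarbital in their water, and then for 4 weeks ate a diet high in fat and cholesterol (HFCD) without CCl4. NASH-CH rats, the model with cirrhosis, inhaled CCl4 with phenobarbital for 24 weeks and ate the HFCD during the last 16 of them. CCl4 exposure therefore ended 4 weeks before the end of the protocol in NASH rats and went on to the end in NASH-CH rats. No group received CCl4, phenobarbital or the diet alone, so that these agents cannot be told apart. The sample labels instead describe the NASH and NASH-CH treatments as combined for their whole length.

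CCl4 becomes toxic when a cytochrome P450, mainly Cyp2e1, turns it into a radical that attacks membrane lipids, and the injury is therefore centred on pericentral hepatocytes. The pericentral programme is held in place by Wnt ligands such as Wnt2 and Wnt9b and by the enhancer Rspo3, which endothelial cells of the central vein and sinusoids release. These signals stabilise beta-catenin, which works with TCF/LEF factors at the genes it turns on. Glul, which encodes glutamine synthetase, is confined in normal liver to the hepatocytes next to the central vein, whereas Cyp2e1 and Cyp1a2 reach further into the lobule.

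The stretches before the start sites of 4 members are shown as the genes of CCl4 activation, of another pericentral P450, of glutamine synthesis and of Wnt feedback. Capitals mark the TCF/LEF words searched for on both strands, CTTTG followed by AA, AT, TA or TT. In the Glul stretch the word stands on the other strand and reads ATCAAAG. The sequences are the 250 bases before a RefSeq start site in the assembly GRCr8, a later build than that of the counts. They lie at chr1:205269717-205269966 (Cyp2e1, plus strand), chr8:66978150-66978399 (Cyp1a2, minus strand), chr13:68519250-68519499 (Glul, plus strand, the first of 2 listed start sites) and chr10:94398535-94398784 (Axin2, plus strand).
Cyp2e1: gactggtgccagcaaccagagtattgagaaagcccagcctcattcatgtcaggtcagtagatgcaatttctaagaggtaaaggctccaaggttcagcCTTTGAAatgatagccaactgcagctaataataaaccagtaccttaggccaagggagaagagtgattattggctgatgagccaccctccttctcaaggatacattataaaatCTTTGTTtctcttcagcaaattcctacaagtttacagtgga
Cyp1a2: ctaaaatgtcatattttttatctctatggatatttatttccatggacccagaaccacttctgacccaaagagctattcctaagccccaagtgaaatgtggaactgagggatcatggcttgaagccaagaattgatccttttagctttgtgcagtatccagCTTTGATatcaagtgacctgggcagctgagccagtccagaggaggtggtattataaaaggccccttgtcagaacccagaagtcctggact
Glul: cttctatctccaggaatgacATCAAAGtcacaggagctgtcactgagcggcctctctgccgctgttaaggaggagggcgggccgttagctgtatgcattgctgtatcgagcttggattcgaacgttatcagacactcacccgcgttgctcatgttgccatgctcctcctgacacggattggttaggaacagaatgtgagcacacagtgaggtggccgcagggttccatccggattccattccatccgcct
Axin2: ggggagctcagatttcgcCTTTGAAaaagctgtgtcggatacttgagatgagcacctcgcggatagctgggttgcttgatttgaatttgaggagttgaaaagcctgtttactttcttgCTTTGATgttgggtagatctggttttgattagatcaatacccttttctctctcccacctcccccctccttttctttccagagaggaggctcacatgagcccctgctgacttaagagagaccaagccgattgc
Cyp2e1 held a word at -153 and another at -41, counted back from the start site, and Axin2 held words at -232 and -132. Cyp1a2 held 1 at -90 and this Glul window 1 at -230. The window before the second Glul start site held none, and neither did those of Oat, Rgn and Rnf43, which are not shown. Of the 8 members matched in the RefSeq table, 5 held at least 1 word in a window, the fifth being Slc1a2 at -189 before its second start site. In all, 5 of the 10 windows of members held a word, against 14.9% of the 33469 windows of the table. The core of the xenobiotic response element, GCGTG, bound by the aryl hydrocarbon receptor that drives Cyp1a2, stood in 1 window of a member (Slc1a2, at -201) and in 25.9% of all windows. A match is a match of letters and not a measured binding site.

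Library totals ran from 19498516 to 27174006 counts in control rats, from 20827733 to 29491895 in NASH rats and from 44680345 to 60117806 in NASH-CH rats. Small non-coding RNA genes took 16.1 to 22.3% of the counts of control libraries, 14.7 to 17.3% with NASH and 11.1 to 13.1% with NASH-CH, so that control and NASH-CH rats did not overlap in this share. For the NASH-CH group, depth and this share cannot be told apart from condition, and their part in the results was not tested beyond thinning the NASH-CH counts and leaving out these genes, under which the calls on Cyp2e1 and Glul were kept. Levels are given as counts scaled to library size by the TMM method (CPM), without a correction for gene length, so that they compare a gene between rats and not one gene with another. Hepatocyte markers were high in every library, with a summed level of the 10 pan-hepatocyte genes of at least 91795 CPM. In liver tissue, fewer cells of a type and less RNA per cell cannot be told apart. A pair of libraries stood apart. Control rat 6 had a median correlation of 0.964 with NASH rats and of 0.960 with the other controls. Control rats 1 and 5 had 0.959 and 0.961 with the other controls, so that rat 6 was not the least like its group. It was singled out by its likeness to NASH rats, with which control rats 1 and 5 both had 0.944. Control rats 3 and 4 had 0.955 and 0.956 with NASH rats. Control rat 2, at 0.962, was nearly as like NASH rats as rat 6, but had 0.968 with the other controls. NASH-CH rat 5 had a median correlation of 0.945 with its own group, where the other rats of that group had at least 0.967, and its cholangiocyte markers summed to 51.5 CPM against at most 17.5 in the other NASH-CH rats and 8.43 to 10.5 in controls. Results that rest on these libraries are also given without them.

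Cyp2e1 was higher in both models, Glul was lower in NASH-CH rats, and Slc1a2 was higher in NASH rats. In NASH against control rats, 2 of the 10 members passed an adjusted p of 0.05 (Cyp2e1 and Slc1a2, both higher), where 3.12% of all tested genes did so and 1.58% were higher. In NASH-CH against control rats, 2 of 10 passed (Cyp2e1 higher and Glul lower), where 17.0% of all tested genes did so, 8.38% higher and 8.60% lower. Between NASH-CH and NASH rats none of the 10 passed in the main limma-voom fit, where 4.20% of all tested genes did so. There, 4 members had an unadjusted p under 0.05 (Cyp1a2, Glul, Slc1a2 and Axin2), as did 17.5% of all tested genes. None passed in edgeR's quasi-likelihood test and 2 passed in DESeq2's Wald test (Cyp1a2 and Glul). The members did not move as a group. Their median log2 fold change was 0.01 in NASH and 0.10 in NASH-CH against control rats, beside medians of 0.01 and 0.01 over all tested genes, and the members ran from -0.92 to 2.25 and from -1.13 to 1.42. Both comparisons use the same control rats. Without control rat 6 and NASH-CH rat 5, 3 members passed in NASH (Rgn lower in addition) and none between the models. In NASH-CH 4 then passed (Slc1a2 higher and Rgn lower in addition). Over the 12906 genes of that fit the NASH calls also grew, to 657 higher (204 in the main fit) beside 756 lower (199). For NASH-CH it gave 1191 higher genes (main fit 1082) beside 1328 lower ones (1110).

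**Figure D1:**
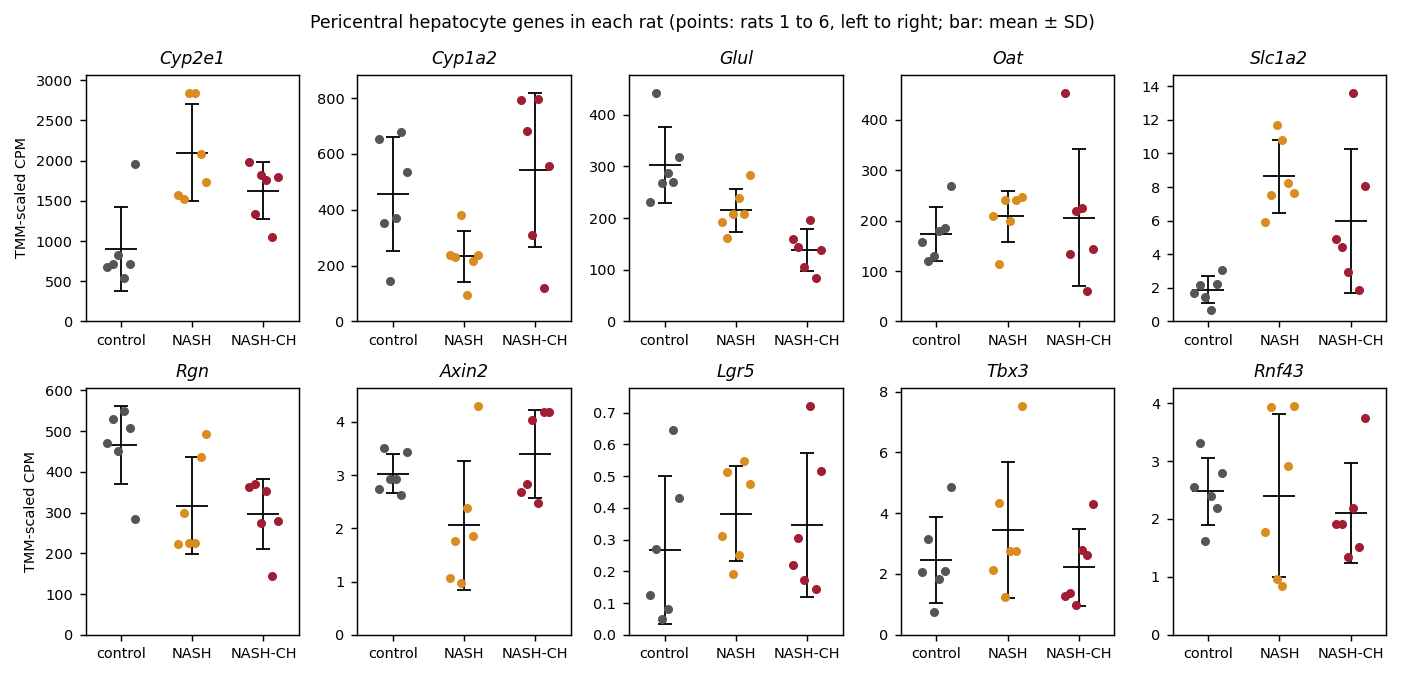
CPM of the 10 members in each rat, with rats 1 to 6 of a group from left to right and the mean and SD as bars (n = 6); each panel has its own axis from 0. Control rat 6 stands at 1954 CPM of Cyp2e1 above the other controls, and all 6 NASH-CH rats lie below all 6 control rats for Glul.

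Cyp2e1 encodes the P450 that oxidises ethanol, acetone and CCl4. In control rats it measured 539 CPM at the lowest, 709 at the median and 1954 at the highest. These values were 1524, 1908 and 2843 CPM in NASH rats. NASH-CH rats measured 1054, 1779 and 1983 CPM. The highest control was rat 6, the other 5 controls ended at 822 CPM, and every NASH and NASH-CH rat exceeded those 5. With rat 6 the groups overlapped. Control rats averaged 902 ± 523 CPM, NASH rats 2100 ± 605 and NASH-CH rats 1626 ± 353 (mean ± SD, n = 6).

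The log2 fold change of Cyp2e1 was 1.32 in NASH (95% interval 0.78 to 1.87, limma-voom adjusted p = 0.0121) and 0.98 in NASH-CH (0.42 to 1.54, adjusted p = 0.0181). Without control rat 6 these values rose to 1.57 and 1.22. Cyp2e1 passed in every one of the 12 fits that left out 1 rat and of the 13 other alternatives, in both comparisons. The level in NASH-CH rats relative to NASH rats was -0.35 on the log2 scale (interval -0.93 to 0.23, adjusted p = 0.562), so that a difference between the models was not detected. The higher level was thus measured in rats whose last CCl4 exposure lay 4 weeks back and in rats still exposed.

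Glul, the gene of the enzyme that joins ammonia and glutamate, went the other way. Control rats measured 231, 278 and 442 CPM at the lowest, median and highest, NASH rats 162, 207 and 282 CPM, and NASH-CH rats 84.0, 142 and 197 CPM. Every NASH-CH rat lay below every control rat, a separation in that direction seen for 3.46% of all tested genes. NASH rats lay between, with 4 of 6 below all controls. The log2 fold change was -1.13 in NASH-CH (interval -1.53 to -0.73, adjusted p = 0.000655) and -0.48 in NASH (interval -0.87 to -0.08, adjusted p = 0.152), so that only the NASH-CH comparison passed. NASH-CH against NASH gave -0.65 (interval -1.05 to -0.25, adjusted p = 0.0613), with 5 of 6 NASH-CH rats below all NASH rats. This contrast missed the threshold in the fit of all rats and passed in 2 of 13 alternatives and in 2 of 12 fits without 1 rat. Glul passed between NASH-CH and control rats in all of these fits.

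Slc1a2 encodes a glutamate transporter that in liver is placed in the same hepatocytes as Glul. It was low in control rats at 0.70, 1.94 and 3.05 CPM (lowest, median and highest, from 17 to 85 counts). NASH rats measured 5.93, 7.92 and 11.7 CPM and NASH-CH rats 1.87, 4.65 and 13.6 CPM. No NASH rat overlapped the controls, a separation in that direction seen for 1.77% of all tested genes, whereas NASH-CH rat 5 fell within the control range and NASH-CH rat 3, at 2.94 CPM, did so too. The log2 fold change in NASH was 2.25 (interval 1.16 to 3.34, adjusted p = 0.0269). That call was lost in 7 of the 12 fits without 1 rat (without control rat 1, 3, 4 or 5, or NASH rat 3, 4 or 5), where the fold change stayed between 1.98 and 2.32 and the adjusted p rose to at most 0.0687. In NASH-CH the value was 1.42 (interval 0.33 to 2.50, adjusted p = 0.0663), and without NASH-CH rat 5 it was 1.72 with an adjusted p of 0.0125. It also passed in 10 of the 13 alternatives.

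Cyp1a2 encodes a P450 that is induced through the aryl hydrocarbon receptor and metabolises caffeine. Its level was 145, 454 and 681 CPM in control rats (lowest, median and highest), 94.99, 234 and 381 CPM in NASH rats and 119, 619 and 797 CPM in NASH-CH rats. The groups overlapped in each comparison. The log2 fold change was -0.92 for NASH (interval -1.82 to -0.01, adjusted p = 0.225) and 0.18 for NASH-CH (interval -0.79 to 1.15, adjusted p = 0.818). NASH-CH against NASH gave 1.10 (interval 0.15 to 2.05, adjusted p = 0.199), and 1.46 with an adjusted p of 0.0480 without NASH-CH rat 5, the lowest of its group. Of these pericentral P450 genes, NASH rats had the highest mean of Cyp2e1 and the lowest mean of Cyp1a2. Cyp1a2 passed in no comparison in the main limma-voom fit, and between the models it passed in 2 of the 13 alternatives. Cyp2e1 did not pass between the models, so that this order of means is a description.

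Rgn, the gene of regucalcin, a calcium-binding protein and gluconolactonase, averaged 465 ± 96.2 CPM in control rats, 317 ± 119 with NASH and 298 ± 86.2 with NASH-CH (mean ± SD, n = 6). The 5 controls other than rat 6 lay between 451 and 549 CPM and control rat 6 at 283 CPM, within the range of both models. The log2 fold changes were -0.62 in NASH (interval -1.13 to -0.10, adjusted p = 0.153) and -0.67 in NASH-CH (interval -1.20 to -0.14, adjusted p = 0.0750). With control rat 6 and NASH-CH rat 5 left out, both passed, at -0.73 (adjusted p = 0.0256) and -0.62 (adjusted p = 0.0493). Without control rat 6 alone, Rgn passed in NASH-CH (-0.80, adjusted p = 0.0335) and not in NASH (-0.75, adjusted p = 0.0683), and without NASH-CH rat 5 alone the NASH-CH value was -0.49 (adjusted p = 0.147). DESeq2 called Rgn lower in NASH-CH with all rats kept (-0.65, adjusted p = 0.0392). Oat, the gene of ornithine aminotransferase, measured 119 to 270 CPM in control, 115 to 248 in NASH and 61.4 to 454 CPM in NASH-CH rats and passed in no comparison. Its NASH-CH spread was the widest of the groups, with an SD of 136 CPM against 54.0 in controls.

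**Figure D2:**
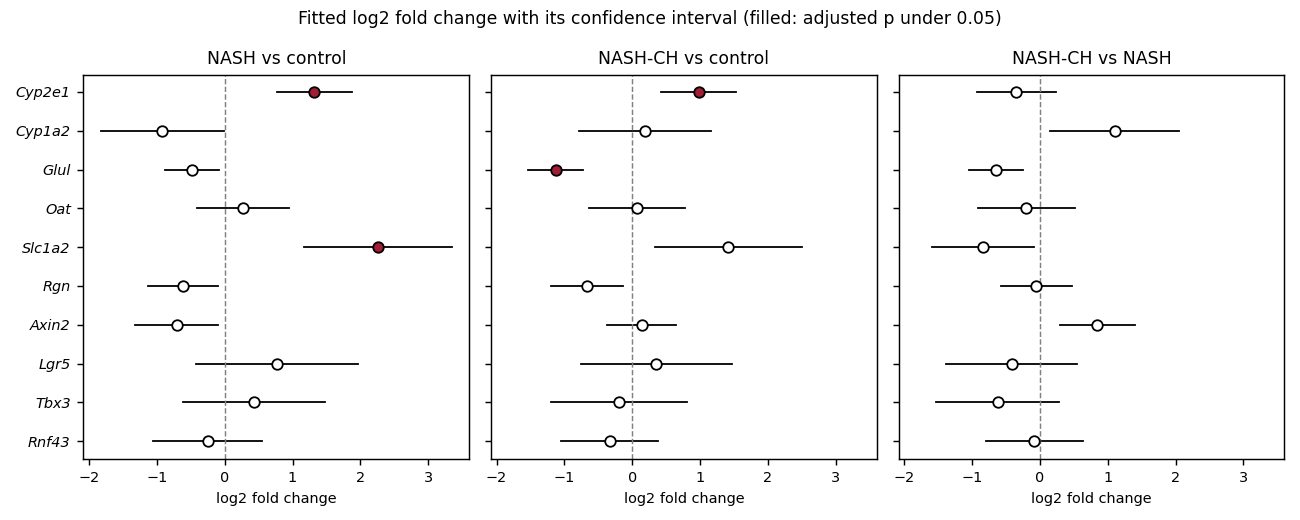
Fitted log2 fold change of each member with its 95% interval in the 3 comparisons; filled points passed an adjusted p of 0.05. Cyp2e1 lies above 0 in both models against controls, Glul is filled at -1.13 in NASH-CH, and no point is filled between the models.

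Axin2, a brake on beta-catenin that is itself turned on by Wnt signalling, was tightly grouped in controls at 2.63, 2.93 and 3.51 CPM (lowest, median and highest). In NASH rats it measured 0.96, 1.80 and 4.30 CPM, with 5 of 6 rats below all controls and NASH rat 6 above all of them. In NASH-CH rats it measured 2.47, 3.44 and 4.19 CPM. The log2 fold change in NASH was -0.71 (interval -1.32 to -0.09, adjusted p = 0.169), and -0.99 with an adjusted p of 0.0437 without NASH rat 6. NASH-CH against NASH gave 0.84 (interval 0.29 to 1.39, adjusted p = 0.0800), and 1.13 with an adjusted p of 0.0105 without that rat. NASH-CH against control rats gave 0.14 (interval -0.37 to 0.64, adjusted p = 0.734).

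The remaining Wnt genes passed in no comparison. Lgr5, the receptor for R-spondins, was at 0.05 to 0.64 CPM in control, 0.19 to 0.55 in NASH and 0.14 to 0.72 CPM in NASH-CH rats, from 1 to 33 counts per library, and a difference would be hard to see at such counts. Tbx3, a transcription factor of pericentral hepatocytes, measured 0.76 to 4.88, 1.23 to 7.52 and 0.96 to 4.31 CPM in the same order. Rnf43, a ligase that removes Wnt receptors from the surface, measured 1.62 to 3.32, 0.84 to 3.95 and 1.34 to 3.74 CPM. The log2 fold changes of these genes against controls ran from -0.33 to 0.77.

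Because members of one library share its scaling, the counts of Cyp2e1 were also divided by those of Glul, Rgn and Cyp1a2 of the same rat, pairs that were chosen after the values had been seen and are given without a test. There were 1.60 to 6.16 Cyp2e1 counts per Glul count in control rats, with a median of 2.78. The range was 6.15 to 13.7 in NASH rats (median 9.72) and 8.95 to 17.3 in NASH-CH rats (median 12.5). Control rat 6 was the highest control and met the lowest NASH rat, rat 6. The other controls ended at 3.06, below every rat of both models.

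Relative to Rgn, Cyp2e1 stood at 0.98 to 1.82 in 5 controls and at 6.89 in control rat 6, at 3.52 to 12.6 in NASH rats and at 3.62 to 7.31 in NASH-CH rats. Relative to Cyp1a2 the NASH rats stood above every control, at 6.55 to 29.8 against 1.03 to 5.66, and the NASH-CH rats, at 1.97 to 8.89, overlapped both groups. In both models the ratios to Glul and Rgn were above those of most controls, but these ratios are not a separate result. Cyp2e1 was called higher in both models, and the fitted log2 fold changes of the chosen denominators were mostly negative. They were -0.48 in NASH and -1.13 in NASH-CH for Glul, and -0.62 and -0.67 for Rgn. For Cyp1a2 they were -0.92 in NASH and 0.18 in NASH-CH. Higher ratios follow from such values. How often other pairs of genes separate the groups was not tested.

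**Figure D3:**
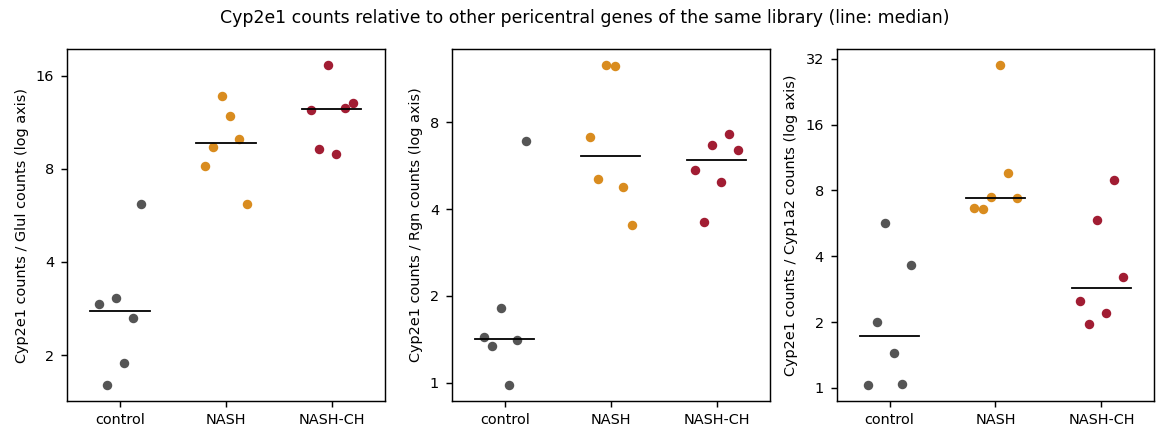
Counts of Cyp2e1 divided by those of Glul, Rgn and Cyp1a2 in the same library, on log axes, with 1 point per rat in the order 1 to 6 and a line at the group median. For Glul the medians are 2.78 (control), 9.72 (NASH) and 12.5 (NASH-CH).

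By a rule of likeness, 5207 tested genes were ranked by the correlation of their log2 CPM with that of Cyp2e1 over the 18 rats. The group means had been taken off. The ranked genes had a mean of at least 10 CPM, and members and genes with a placeholder symbol were left out. The closest were Ech1 (Pearson's r = 0.88, Spearman's rho = 0.80), Eci1 (r = 0.87, rho = 0.78) and Decr1 (r = 0.83, rho = 0.75), which encode enzymes of the breakdown of unsaturated fatty acids. Without control rat 6 and NASH rat 3, the rats farthest from the median of Cyp2e1, r was 0.76, 0.76 and 0.72. Ech1 was at 229 CPM in control rat 6 and at 36.8 to 57.0 CPM in the other controls, so that this rat was set apart in both genes. Its level was 42.2 to 178 CPM in NASH and 20.8 to 53.1 CPM in NASH-CH rats, and it passed in no comparison with log2 fold changes of 0.47 in NASH and -0.52 in NASH-CH.

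The nearest to Glul were Gdf2 (r = 0.76, rho = 0.65), Abhd2 (r = 0.76, rho = 0.75) and Slc13a3 (r = 0.76, rho = 0.79). Without NASH-CH rat 5 and control rat 2, r was 0.61, 0.70 and 0.72. The nearest to Axin2 were Flot1 (r = 0.72, rho = 0.46), Rfc1 (r = 0.69, rho = 0.50) and Etv3 (r = 0.68, rho = 0.68). For the first of these r fell to 0.43 without NASH rats 6 and 3, for the second to 0.34, and for Etv3 it was 0.72. These are descriptions over rats that share depth and scaling within a library.

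**Figure D4:**
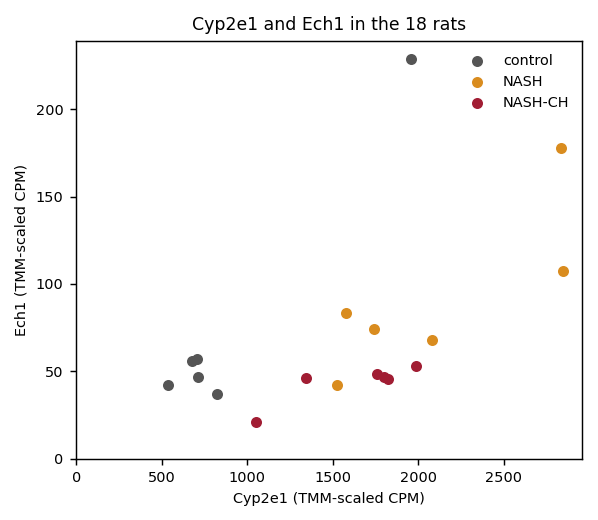
CPM of Cyp2e1 (horizontal axis) and of Ech1 (vertical axis) in the 18 rats, with 1 point per rat coloured by group and both axes from 0. Control rat 6 is the grey point at 1954 CPM of Cyp2e1 and 229 CPM of Ech1, apart from the other 5 controls at the lower left.

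Other genes of the zone were taken from lists. Of 10 other pericentral genes, none passed in NASH by limma-voom (3 at an unadjusted p under 0.05, none by edgeR and 1 by DESeq2) and 2 were lower in NASH-CH than in control rats, namely Nr1i3 and Aldh3a2. Nr1i3 encodes CAR, the nuclear receptor through which phenobarbital acts. It measured 6.08 to 18.4 CPM in control, 12.8 to 25.1 in NASH and 4.37 to 11.02 CPM in NASH-CH rats, with a log2 fold change of -0.87 in NASH-CH (adjusted p = 0.0289) and of -1.51 against NASH (adjusted p = 0.000901), where the groups did not overlap. Aldh3a2, an aldehyde dehydrogenase of fatty aldehydes, changed by -0.40 (adjusted p = 0.0461). Without control rat 6 and NASH-CH rat 5 neither passed and 1 other gene of the list was higher. Against NASH rats, 2 of the 10 were lower, Nr1i3 and the hepatocyte uptake transporter Slco1b2 at -0.56 (adjusted p = 0.0145).

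Of 8 other tested Wnt targets, only Lect2 was called in NASH by limma-voom (log2 fold change -0.64, adjusted p = 0.0259), and 4 had an unadjusted p under 0.05. In the same comparison edgeR called 2 lower, and DESeq2 called 2 lower and 1 higher. Lect2, a secreted hepatocyte protein, was also lower in NASH-CH (-0.69, adjusted p = 0.00470), where Notum, a Wnt deacylase, was lower too and Tnfrsf19 and Nkd1 were higher. Nkd1, an inhibitor of Wnt signalling, changed by 0.83 (adjusted p = 0.0210). Tnfrsf19, a receptor of the TNF family, changed by 2.29 (adjusted p = 0.0216) but had only 0 to 5 counts per control library. Against NASH rats, Ccnd1, the gene of cyclin D1, was higher in NASH-CH rats at 1.71 (adjusted p = 0.0119). Rhbg, an ammonia transporter, was lower there at -1.23 (adjusted p = 0.0309). Mean Ccnd1 was 23.9 CPM in control rats, 8.74 with NASH and 35.7 with NASH-CH. Every NASH rat lay below every control rat for Ccnd1, at -1.37, which just missed the threshold (adjusted p = 0.0513). Its NASH-CH value relative to controls was only 0.34 and did not pass. The list thus moved in both directions, with a median of 0.01 in NASH-CH against control rats beside the 0.01 of all tested genes. Without control rat 6 and NASH-CH rat 5, 3 genes of the list were lower and 0 higher in NASH than in control rats, and 1 was higher and 1 lower in NASH-CH than in control rats. Against NASH rats 1 was then higher and none lower.

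Of 16 tested Wnt ligands, receptors and signalling genes, 1 was higher and none lower in NASH, and in NASH-CH rats 1 rose and 1 fell. The higher gene in both was Apc, part of the complex that destroys beta-catenin, at 0.42 (adjusted p = 0.0470) and 0.54 (adjusted p = 0.00421). The lower gene was Wnt2, which measured 0.93 to 1.86 CPM in control rats, 0.92 to 1.38 in NASH and 0.72 to 1.36 CPM in NASH-CH rats, at a log2 fold change of -0.61 in the last (adjusted p = 0.0403) and of -0.44 in NASH (adjusted p = 0.255). Wnt9b gave 0.89 (adjusted p = 0.159) and Rspo3 -0.30 (adjusted p = 0.263) in NASH-CH. The 5 endothelial markers summed to 184 to 260 CPM in control rats, 242 to 275 with NASH and 154 to 262 with NASH-CH. Among them Vwf, von Willebrand factor, was higher in NASH-CH than in control rats (1.13, adjusted p = 0.00245, all 6 rats above all controls), and Kdr, a receptor for VEGF chosen after its values were seen, gave -0.35 (adjusted p = 0.115). Their part in the Wnt2 result was not tested.

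Some other enzymes of the P450 system were higher in the same rats. Of 12 entries, 3 were higher and none lower in NASH, and against controls the NASH-CH rats had 5 higher and 1 lower. Cyp3a2, a P450 that also takes part in CCl4 metabolism, rose from 451 to 1000 CPM in control rats to 1158 to 2157 in NASH rats, with no overlap, at a log2 fold change of 1.31 (adjusted p = 0.00759). Cyp3a23/3a1 rose by 1.15 (adjusted p = 0.00528). The first of 2 entries named Cyp3a9 rose by 1.20 with NASH (adjusted p = 0.0161) and by 1.39 with NASH-CH (adjusted p = 0.000760). The second entry did not, at 0.08 with NASH (adjusted p = 0.914) and -0.68 with NASH-CH (adjusted p = 0.139). The Cyp3a genes resemble one another, and reads could be shared among them.

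Cyp2b2 is the P450 for which phenobarbital is the classic inducer. It measured 6.56 to 47.2 CPM in control rats and 555 to 1058 CPM in NASH-CH rats, with a log2 fold change of 4.96 and no overlap (adjusted p = 0.00946). In NASH rats it spread from 5.99 to 1105 CPM, with rat 2 at 1105, rat 3 at 201 and rat 1 at 98.5 CPM above all controls and the other 3 rats at 5.99 to 14.7 CPM, and it did not pass (0.84, adjusted p = 0.661). The models overlapped, since NASH rat 2 lay above every NASH-CH rat, and between them Cyp2b2 gave 4.11 (adjusted p = 0.0616). Cyp2e1 in those 3 high rats was 1524, 2843 and 1578 CPM and in the others 1738 to 2835 CPM. Ephx1, an epoxide hydrolase, rose by 1.31 in NASH-CH (adjusted p = 0.00263). No gene of the libraries carried the symbol Cyp2b1, so that it could not be tested.

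Of 6 tested genes of the aryl hydrocarbon receptor list, none passed in any of the 3 comparisons by limma-voom or edgeR, 1 had an unadjusted p under 0.05 in each, and DESeq2 called 1 as higher in NASH rats. Cyp1a1, a close relative of Cyp1a2, measured 0.25 to 5.09 CPM in control, 0.04 to 3.86 in NASH and 0.84 to 6.70 CPM in NASH-CH rats. Ahr itself, the receptor, gave 0.61 (adjusted p = 0.0941) with NASH and 0.50 (adjusted p = 0.109) with NASH-CH. Of 10 tested genes that handle ornithine, glutamate and ammonia beside Glul and Oat, none passed in NASH (none at an unadjusted p under 0.05 by limma-voom, edgeR or DESeq2) and 1 was lower in NASH-CH, Glud1, the glutamate dehydrogenase of mitochondria, at -0.57 (adjusted p = 0.0109). Rhbg, given above, belongs to the same list and was its only call between the models. The list held no call between the models without control rat 6 and NASH-CH rat 5.

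**Figure D5:**
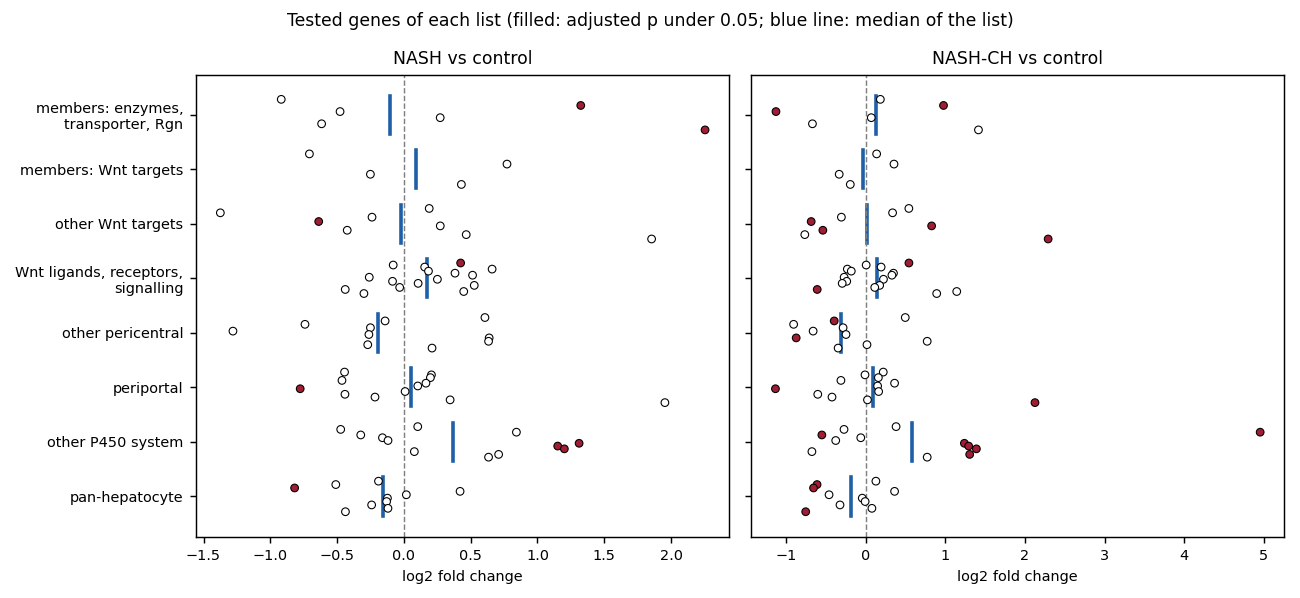
Fitted log2 fold change of the tested genes of 8 lists in NASH and in NASH-CH against control rats, with 1 point per gene, filled where the adjusted p was under 0.05, and a blue line at the median of each list. In the NASH-CH panel, filled points lie on both sides of 0 in 5 of the 8 lists, and the point at 4.96 is Cyp2b2.

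The opposite zone and hepatocytes as a whole were measured the same way. Of 12 periportal genes, NASH rats had 1 lower, and NASH-CH rats had 1 higher and 1 lower. The lower gene in both was Cyp2f4, at -0.78 (adjusted p = 0.0275) and -1.14 (adjusted p = 0.000294), and the higher was Sds, serine dehydratase, at 2.13 (adjusted p = 0.0196). The summed periportal level ran from 7211 to 10021 CPM in control, 8247 to 10385 in NASH and 7271 to 11460 CPM in NASH-CH rats. Of 10 pan-hepatocyte genes, Apoa1 was lower in NASH at -0.82 (adjusted p = 0.0110), and Ttr at -0.76, Apoa1 at -0.66 and Alb at -0.61 were lower in NASH-CH (adjusted p = 0.0174, 0.0107 and 0.0304). Scaled by the pan-hepatocyte list, Glul fell by 0.95 on the log2 scale in NASH-CH rats (adjusted p = 0.00556) and Cyp2e1 was higher by 1.17 (adjusted p = 0.0137).

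Markers of other liver cells moved with both models. In NASH rats, Marco, a scavenger receptor of macrophages, was lower, at -2.78 on the log2 scale (adjusted p = 0.0168), and so was Lrat, the enzyme that stores retinol in stellate cells, at -0.59 (adjusted p = 0.0260). For both genes all 6 NASH rats lay below all controls, and they were the only calls in NASH among the 6 macrophage and 7 stellate and myofibroblast genes.

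In NASH-CH against control rats, 3 of the 7 stellate and myofibroblast genes were higher and 1 lower. Col1a1, a chain of collagen I, gave 1.02 (adjusted p = 0.0186), Tagln, a protein of contractile cells, 0.97 (adjusted p = 0.00444), and Lrat -0.68 (adjusted p = 0.00251). Against NASH rats 4 of the 7 were higher, among them Tagln at 1.30, Col1a1 at 1.01 and Des, the gene of desmin, at 0.56 (adjusted p = 0.000818, 0.0451 and 0.0218). Only 1 of the 7 was higher against NASH rats without control rat 6 and NASH-CH rat 5. The summed level of the list was 274 to 369 CPM in control, 223 to 302 in NASH and 275 to 422 CPM in NASH-CH rats. Most of this sum was Col3a1, with means of 236, 197 and 278 CPM in the same order. Of the 6 macrophage genes, 4 were lower in NASH-CH than in control rats, among them Marco at -2.15, Clec4f, a lectin of Kupffer cells, at -0.58, and the scavenger receptor Cd163 at -0.48 (adjusted p = 0.00568, 0.0381 and 0.0304). Without control rat 6 and NASH-CH rat 5, 3 of the 6 were lower. The sum of the 6 genes was 198 to 375 CPM in control, 155 to 229 in NASH and 132 to 197 CPM in NASH-CH rats. Clec4f had the largest mean of them in each group. Of 4 tested cholangiocyte genes none passed against controls by limma-voom (in NASH-CH 1 at an unadjusted p under 0.05, 2 higher by edgeR and 1 by DESeq2). Against NASH rats 1 passed, Spp1, osteopontin, at 1.61 (adjusted p = 0.0153). No listed marker of these cell types was at 0 in all rats. The part of these cells in the levels of the members was not tested. NASH-CH rat 5, with the highest cholangiocyte sum, was also the lowest of its group for Cyp2e1, Cyp1a2, Glul, Oat, Slc1a2 and Rgn, and without it the log2 fold change of Glul in NASH-CH was -1.01 and that of Cyp2e1 was 1.09.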

How the data were processed

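Liver RNA of 18 rats was sequenced as mRNA libraries (TruSeq Stranded mRNA, per the labels). The authors trimmed the reads, aligned them to Rnor_6.0 with STAR in 2-pass mode, quantified Ensembl genes with RSEM and deposited 1 table of expected counts per rat, not normalized for depth or length. Tool versions are not given in the sources used here. The labels and the methods name different RNA extraction kits. Expected counts, of which at most 7.73% per rat were not whole, were rounded. Samples were grouped by their labels.

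Counts were scaled by TMM (edgeR 4.0.16), filtered with filterByExpr and tested with limma 3.58.1 (voom) in R 4.3.3, in 1 fit of the 18 rats with a mean per group. The p-values of each of the 3 comparisons were adjusted over the 12904 tested genes by the Benjamini-Hochberg method at 0.05. Log2 CPM for likeness used a prior count of 2. The script was tested on simulated data. Total counts of 19498516 to 60117806 per rat set the counting error, and the 6 rats per group limit each comparison. Libraries within a group differed from each other by more than counting error (smallest chi-square per degree of freedom 29.8).

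The members and gene lists were chosen with earlier results of these data known. All 10 members are named, and of each other list at most 3 genes per comparison with the largest absolute log2 fold change past the threshold, together with Cyp2b1, Cyp2b2, Cyp1a1, Ahr, Wnt2, Wnt9b, Rspo3 and the 3 genes most like Cyp2e1, Glul and Axin2. Values of Notum, Kdr and of control rats singled out in the ratios were added after they had been seen. Promoter stretches came from a RefSeq table of GRCr8 matched by symbol, 8 of the 10 members. Lgr5 and Tbx3 were not matched.

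Alternatives used DESeq2 1.42.0, the quasi-likelihood test of edgeR, other scalings (DESeq2 size factors, library size only, the pan-hepatocyte list, no small non-coding RNA genes), other filters, sample quality weights, thinned NASH-CH counts, the 2 groups alone, a replicate block, other thresholds and leaving out each rat. Leaving out control rat 6 and NASH-CH rat 5 together was added after the data had been seen.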

Additional observations from a re-analysis of the deposited data

Results flagged for a closer look

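In 4 of the 30 sets of 6 rats (10 members in 3 groups), 1 rat lay farther from the rest than Dixon's 95% limit for 6 values allows. Chance alone marks about 1 in 20 such sets. Cyp2e1 was at 1950 CPM in control rat 6, the highest of its group, and Rgn was at 283 CPM in the same rat, the lowest of its group. Oat was at 115 CPM in NASH rat 2, below the other NASH rats. Rnf43 was at 3.74 CPM in NASH-CH rat 6, above the other NASH-CH rats.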

How the results depend on the processing

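The calls on Cyp2e1 in both models and on Glul in NASH-CH held in each alternative that kept the threshold at 0.05, apart from Cyp2e1 in NASH-CH, whose log2 fold change of 0.98 missed a limit of 1. Members called in NASH against control rats were 1 to 3 when 1 rat was left out and 0 at an adjusted p under 0.01. In NASH-CH against control rats they were 4 with DESeq2 and 4 without control rat 6 and NASH-CH rat 5, and 1 at an adjusted p under 0.01 or with a log2 fold change of at least 1. Over all 12904 tested genes DESeq2 called 1439 higher and 1402 lower in NASH-CH, against 1082 and 1110 in the main fit. Without those 2 rats, 1191 of 12906 were higher and 1328 lower. Between the models the members called were 0 to 2 when 1 rat was left out, 2 with DESeq2, 2 without the filter and 1 with sample quality weights.

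Over all tested genes, the NASH count of 403 became 652 with edgeR, 1228 with DESeq2, 865 with library size only, 268 without the filter, 1509 with sample quality weights, 644 with the 2 groups alone, 1413 without control rat 6 and NASH-CH rat 5, 39 at 0.01, 117 with the fold limit and 128 to 982 without 1 rat (128 without control rat 3, 982 without control rat 6). The NASH-CH count of 2192 became 5495 without the filter, 1408 with the 2 groups alone, 849 at 0.01 and 685 with the fold limit. Between the models 542 became 949 with DESeq2, 300 with pan-hepatocyte scaling, 272 without small non-coding RNA genes, 2649 without the filter, 349 with the 2 groups alone, 239 at 0.01, 320 with the fold limit and 346 to 591 without 1 rat. The cause was not tested. With library size only, the median log2 fold change over all genes was 0.23 for NASH and 0.27 for NASH-CH, and with pan-hepatocyte scaling 0.21 and 0.22. Under library size only the NASH split was 785 higher and 80 lower genes, and 2781 and 489 in NASH-CH. Under pan-hepatocyte scaling it was 348 and 58, and 1509 and 447, and between the models 75 and 225 against 234 and 308 as reported. There, library size only gave 119 and 248. In NASH-CH without the filter it was 1529 and 3966.

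Signs turned only where no call stood. Tbx3 in NASH-CH was 0.0688 with library size only. Between the models, sample quality weights gave 0.0189 for Oat and 0.0606 for Rgn, and leaving out control rat 6 and NASH-CH rat 5 gave 0.0655 for Oat, 0.12 for Rgn and 0.0037 for Rnf43. Without 1 rat the ranges were -0.13 to 0.55 for Cyp1a2, -0.21 to 0.35 for Oat and -0.48 to 0.0800 for Tbx3 in NASH-CH against control rats, and -0.48 to 0.0656 for Oat, -0.14 to 0.12 for Rgn and -0.33 to 0.14 for Rnf43 between the models. Lgr5 gave no value where its counts did not pass the filter.

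Rats carry the numbers 1 to 6 in each group, but rats of the same number did not deviate together (mean correlations of 0.05, 0.07 and 0.02 in the 3 comparisons). With the replicate number as a block, 444, 2095 and 540 genes passed, and among the members Slc1a2 passed in NASH-CH (1.53, adjusted p = 0.0406). Rats that share a cage are not named in the labels.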
